A study of Glycine max with 12 samples.

Results

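The 52 genes described here are the rows of a soybean root expression table (49128 genes) whose Gene Ontology column holds the term heat shock protein binding. The plants were Glycine max of the cultivar Williams 82, and their root RNA gave 12 libraries, 3 in each of 4 groups: roots with cadmium and the bacterium Oceanobacillus picturae (Cd+OP), with cadmium (Cd), with the bacterium (control+OP) and with neither (control). A label of 70 mg/L Cd is attached to control samples as well as Cd samples, so no group's dose is known from it. The sources used here give no plant age, duration of exposure or way of inoculation. Whether each library is a different plant is not labelled, so the p-values reflect only how far these libraries scatter, which may be technical.

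Heat shock proteins are molecular chaperones, which bind unfolded or misfolded polypeptides and help them to fold, refold or reach the right compartment. The Hsp70 type hydrolyses ATP as it binds and releases its client. Proteins of the DnaJ type bring it clients and stimulate its ATPase, and some of them hold a zinc finger. In the lumen of the endoplasmic reticulum (ER) the Hsp70 called BiP folds secreted proteins, and its transcript is a known marker of the unfolded protein response. Cadmium binds thiol groups and is known to disturb protein folding.

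By their annotation the members are for the most part not co-chaperones but chaperones. Of the 52 genes, 32 carry ATP hydrolysis and ATP-dependent protein folding chaperone, the terms of an Hsp70-type enzyme. Within these, 4 are annotated to the ER lumen, 4 to the mitochondrion and 24 to neither. A further 19 carry metal ion binding without ATP hydrolysis, 5 of them with Hsp70 protein binding, chaperone binding and the cytosol as well. The remaining gene, GLYMA_10G293900, is annotated with protein-disulfide reductase activity and photosystem I assembly. None of the 52 has a symbol, and 51 are described as hypothetical proteins. The exception is GLYMA_01G238600, described as heat shock 70 kDa protein 8 by projection from Arabidopsis. All 52 share the term unfolded protein binding, which the choice did not use, and they lie on 17 of 20 chromosomes. None could be matched to the reference table of gene names, and no sequence was used here.

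Of the members, 42 reached 1 FPKM (fragments per kilobase of transcript, relative to sequencing depth) as their mean over the 12 libraries and were tested. Their counts were 88 to 102114 per library, from library totals of 49904227 to 57693211. The other 10 had means of 0.0077 to 0.741 FPKM. Among these, GLYMA_02G205600 had 0.121, 0.188 and 0.185 FPKM in Cd+OP libraries, 1.77, 1.57 and 1.91 FPKM in Cd libraries, 0.0908, 0.0257 and 0.0818 FPKM in control+OP libraries and 0.155, 0.233 and 0.312 FPKM in control libraries. Of the tested members 40 had a mean of at least 1 FPKM in every group, and GLYMA_13G224000 and GLYMA_18G289600 did not. With control means of 0.902 and 0.658 FPKM, both were tested only because of the groups in which they were high. The counts of members given below include both. Levels are FPKM, which compares genes per length. Changes are log2 fold changes ± SE from edgeR's quasi-likelihood test, with Benjamini-Hochberg adjustment over all 30340 tested genes and a threshold of 0.05. Positions follow the authors' table; its genome build was not stated in any source used here. Members of a family may share reads, and how the authors' counting split these could not be seen, so values of close relatives are uncertain.

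The members took 0.443 to 0.454% of all FPKM in Cd+OP libraries and 0.685 to 0.70% in Cd libraries, against 0.451 to 0.464% in control+OP and 0.298 to 0.305% in control libraries. The summed level of the 52 genes was 2044 ± 20.6 FPKM in Cd+OP, 3154 ± 19.4 in Cd, 2080 ± 40.1 in control+OP and 1378 ± 46.8 in control (SD, n = 3 each). The 6 genes of highest mean level held 59.4% of this sum, so it describes few genes. They were GLYMA_03G171100, GLYMA_12G064000, GLYMA_19G172200, GLYMA_13G130900 and GLYMA_11G140500, all ATPase members outside the ER lumen and the mitochondrion, and GLYMA_12G095700, a metal ion binding member. In bulk root RNA, fewer cells of a type and less RNA per cell cannot be told apart.

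**Figure D1:**
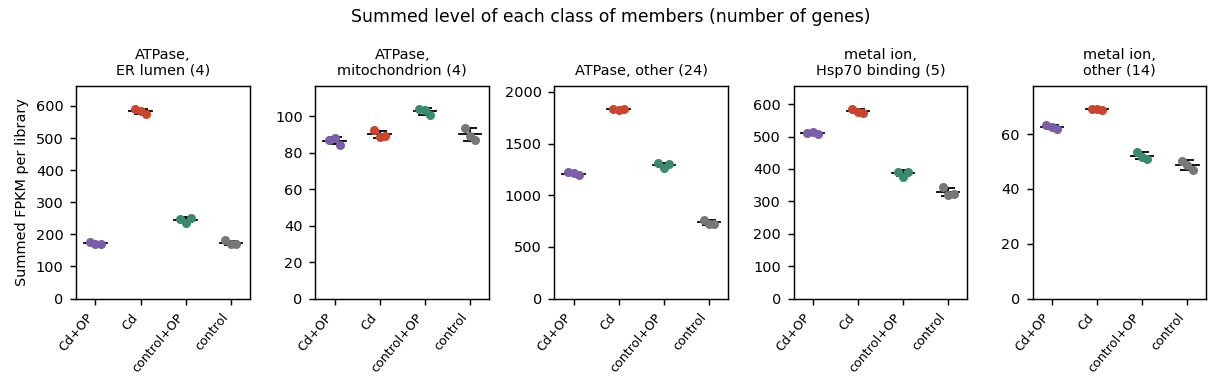
Summed FPKM per library for 5 classes of members, with the number of genes in each; points are libraries, bars are the mean and SD of 3. Cd libraries stand highest in 4 classes and close to control libraries in the mitochondrial class, and the ER lumen class lies at 172.6 FPKM in Cd+OP against 583 FPKM in Cd.

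Markers of other tissues differed between the groups as well, and their part in the results below was not tested. The 9 oxygen carrier genes of the nodule list summed to 399 to 422 FPKM in Cd+OP, 349 to 355 in Cd, 452 to 491 in control+OP and 756 to 832 in control. The 137 photosystem genes summed to 103 to 107, 58.8 to 60.1, 142 to 148 and 220 to 235 FPKM in the same order, with 13 to 20 of them at 0 in all libraries of a group. The 103 nutrient reservoir genes summed to 1087 to 1098, 414 to 435, 1183 to 1220 and 875 to 940 FPKM, with 16 to 22 at 0. The 21 Casparian strip and suberin genes, which mark the root's inner barrier, were present at 133 to 140, 101 to 104, 141 to 150 and 137 to 143 FPKM, with 0 to 3 at 0.

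Cd against control compares roots with the metal alone with untreated roots. Heat shock protein binding genes were mostly higher with Cd: 33 of 42 rose, 4 fell and 5 did not pass. Over all tested genes 37.6% were called higher and 38.7% lower (76.2% in either direction). The median log2 change was 0.60 for the members and 0.00 for all tested genes. For the 25 members of at least 5 FPKM it was 0.92, against -0.053 for all genes of at least 5 FPKM. Of the 33 genes 14 rose at least 2-fold, and no member fell by as much. The 33 and the 14 include GLYMA_18G289600, which was tested only because of the groups in which it was high. Among all 30340 tested genes 2608 were called higher and 4962 lower by at least 2-fold. Of the 42 members 30 had their highest group mean in Cd and 25 their lowest in control, against 32.6% and 22.9% of all tested genes. The Cd and control libraries did not overlap for 36 of the 42 members, and for 77.2% of all tested genes.

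**Figure D2:**
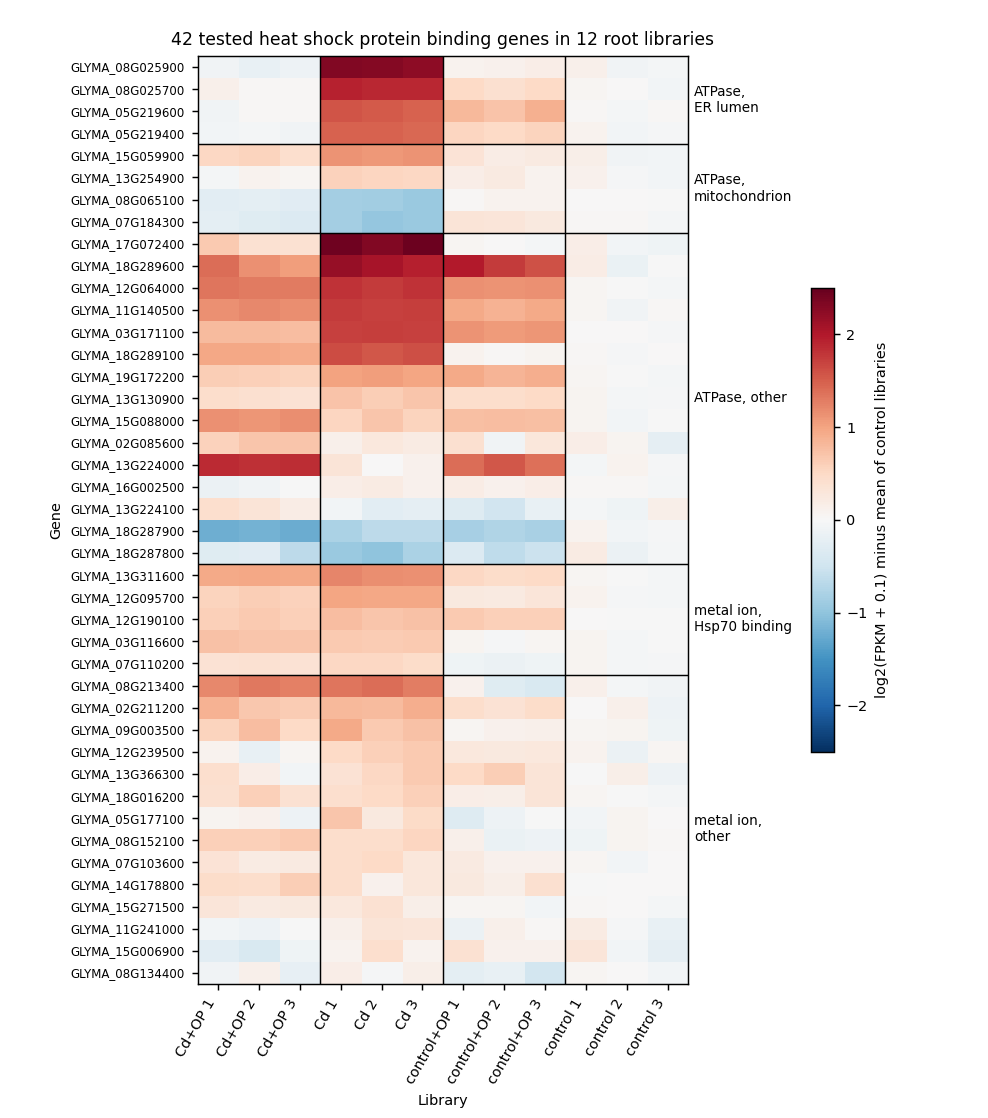
Heat map of the 42 tested members in 12 libraries; colour is log2(FPKM + 0.1) minus the mean of the control libraries of that gene, rows are grouped by class and ordered by the change with Cd. The 3 Cd columns are red in most rows, and GLYMA_07G184300, GLYMA_08G065100, GLYMA_18G287800 and GLYMA_18G287900 are blue there.

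All 4 ER lumen members rose with Cd, by 1.46 to 2.29 on the log2 scale (adjusted p at most 4.66e-20, edgeR). GLYMA_08G025700 (chromosome 8, 2033529 to 2037382), which carries the KEGG orthology entry of BiP, stood at 288, 282 and 281 FPKM in Cd libraries, against 78.8, 76.8 and 73.1 FPKM in control libraries (log2 1.90 ± 0.0367). Its neighbour GLYMA_08G025900 (chromosome 8, 2047124 to 2051007) had 70.5, 69.2 and 66.8 FPKM with Cd, against 15.5, 13.3 and 13.6 FPKM in control (log2 2.29 ± 0.047). Every Cd library thus lay far above every control library for both genes.

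On chromosome 5 a second pair of ER lumen members lies side by side with 1 gene listed between them, as on chromosome 8. GLYMA_05G219400 (39891624 to 39895750) had 185, 184 and 181 FPKM in Cd libraries, against 70.6, 63.7 and 65.6 FPKM in control libraries (log2 1.46 ± 0.0315). GLYMA_05G219600 (39907980 to 39911966) had 48.8, 47.7 and 45.8 FPKM with Cd, against 16.8, 15.8 and 16.6 FPKM in control (log2 1.53 ± 0.0454). In both pairs the first gene was the more abundant and the groups did not overlap. All 4 are annotated with the ER unfolded protein response and with ubiquitin-dependent degradation of ER proteins.

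The 4 mitochondrial members did not all move the same way with Cd. GLYMA_07G184300 (chromosome 7, 35187421 to 35190998) had 16.7, 15.3 and 15.8 FPKM in Cd libraries, against 30.5, 30.5 and 29 FPKM in control libraries (log2 -0.92 ± 0.0444). GLYMA_08G065100 (chromosome 8, 4987113 to 4990654) had 14, 13.8 and 13.2 FPKM with Cd, against 25.4, 25.6 and 25 FPKM in control (log2 -0.89 ± 0.0433). Both fell, and their Cd and control libraries did not overlap.

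The other mitochondrial members rose. GLYMA_15G059900 (chromosome 15, 4634570 to 4638101) had 31.4, 30.4 and 31.1 FPKM in Cd libraries, against 15.9, 13.4 and 13.7 FPKM in control libraries (log2 1.11 ± 0.0517). GLYMA_13G254900 (chromosome 13, 36061267 to 36064808) had 30.5, 29.3 and 29 FPKM with Cd, against 21.8, 19.9 and 19.3 FPKM in control (log2 0.55 ± 0.0461). The 4 changes nearly cancelled in the sum, which was 90.1 ± 2.06 FPKM in Cd and 90 ± 3.39 FPKM in control (SD, n = 3 each).

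**Figure D3:**
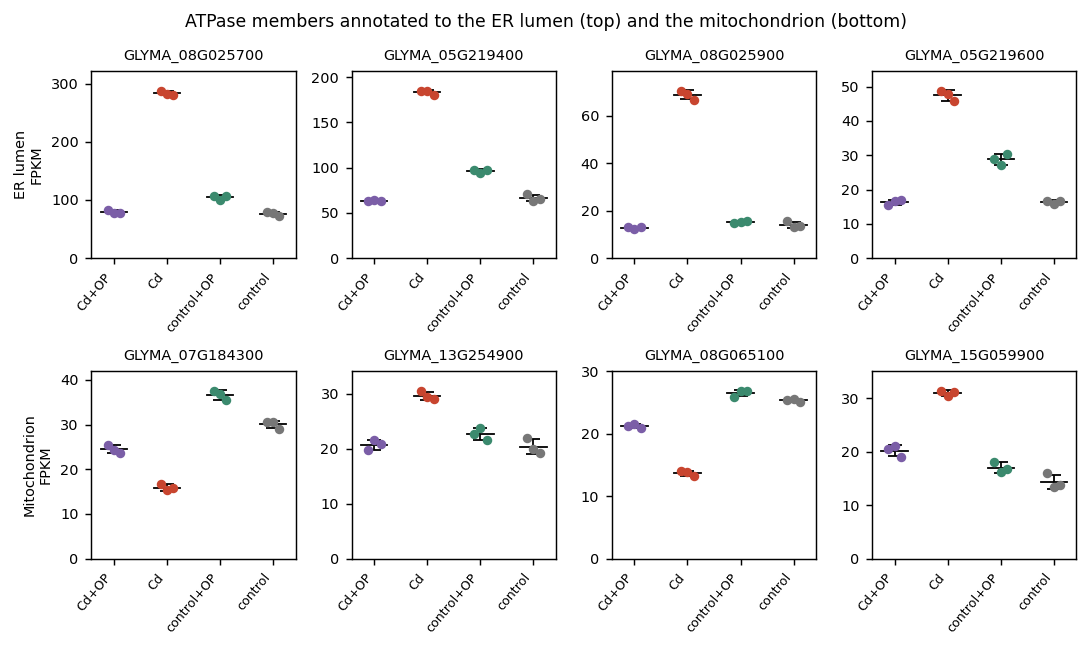
FPKM of the 4 ER lumen members (top) and the 4 mitochondrial members (bottom) by group; points are libraries, bars are the mean and SD of 3, and axes start at 0. The ER lumen genes are highest in Cd and near the control level in Cd+OP, whereas GLYMA_07G184300 and GLYMA_08G065100 are lowest in Cd.

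With Cd 37.6% of all tested genes were called higher and 38.7% lower. Of the 15 tested ATPase members annotated to neither compartment 10 rose with Cd, 2 fell and 3 did not pass, with a median of 0.67. The most abundant was GLYMA_03G171100 (chromosome 3, 38570656 to 38573726), at 681, 691 and 688 FPKM in Cd libraries, against 212, 210 and 206 FPKM in control libraries (log2 1.72 ± 0.0276). GLYMA_12G064000 had 321, 310 and 324 FPKM with Cd, against 95.3, 91.4 and 89.6 FPKM in control (log2 1.79 ± 0.0305). GLYMA_11G140500 had 232, 226 and 231 FPKM with Cd, against 72.1, 65.2 and 70.9 FPKM in control (log2 1.73 ± 0.0339). These 3 abundant genes were each higher in every Cd library than in every control library.

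GLYMA_17G072400, a less abundant member with the same KEGG terms as GLYMA_03G171100 (spliceosome, ER protein processing, endocytosis), had the highest fold of the tested members. It had 18, 16.8 and 18.3 FPKM in Cd libraries, against 3.71, 3.13 and 3.05 FPKM in control libraries (log2 2.43 ± 0.0911, adjusted p = 6.33e-18, edgeR). GLYMA_19G172200 and GLYMA_13G130900, both above 100 FPKM in every library, rose by 1.01 ± 0.0309 and 0.67 ± 0.0339. GLYMA_16G002500, the only tested ATPase member annotated to the chloroplast, changed by 0.16 ± 0.0415 and passed (adjusted p = 0.00138, edgeR), but the call ended in 4 of 21 alternatives, without Cd library 1 or 2 or control library 1 or 3 (adjusted p up to 0.103).

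On chromosome 18 a row of 5 ATPase members spans 196.9 kb, and 4 of them were tested. The first pair is adjacent, with no gene listed between, whereas 10 genes are listed between GLYMA_18G287900 and GLYMA_18G289100 and 4 between GLYMA_18G289100 and GLYMA_18G289600. GLYMA_18G287800 had 2.73, 2.59 and 3.04 FPKM in Cd libraries, against 6.11, 4.77 and 5.16 FPKM in control libraries (log2 -0.93 ± 0.117). Its direct neighbour GLYMA_18G287900 had 28.2, 31 and 31 FPKM with Cd, against 52.4, 47 and 47.8 FPKM in control (log2 -0.70 ± 0.0415). Both genes of this adjacent pair fell with Cd.

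Farther along the row the other two tested genes rose. GLYMA_18G289100 had 46.9, 44.3 and 46.5 FPKM in Cd libraries, against 15.3, 14.8 and 15.1 FPKM in control libraries (log2 1.61 ± 0.0387). GLYMA_18G289600 had 3.33, 3.06 and 2.82 FPKM with Cd, against 0.753, 0.573 and 0.647 FPKM in control (log2 2.22 ± 0.159). With limma on log2(FPKM + 1), a scale that understates changes of low genes, the change of GLYMA_18G289600 was 1.295. This gene was tested only because of the groups in which it was high, so its change is given as a value. GLYMA_18G290600, at the end of the row, was not tested and had at most 0.231 FPKM in any library.

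**Figure D4:**
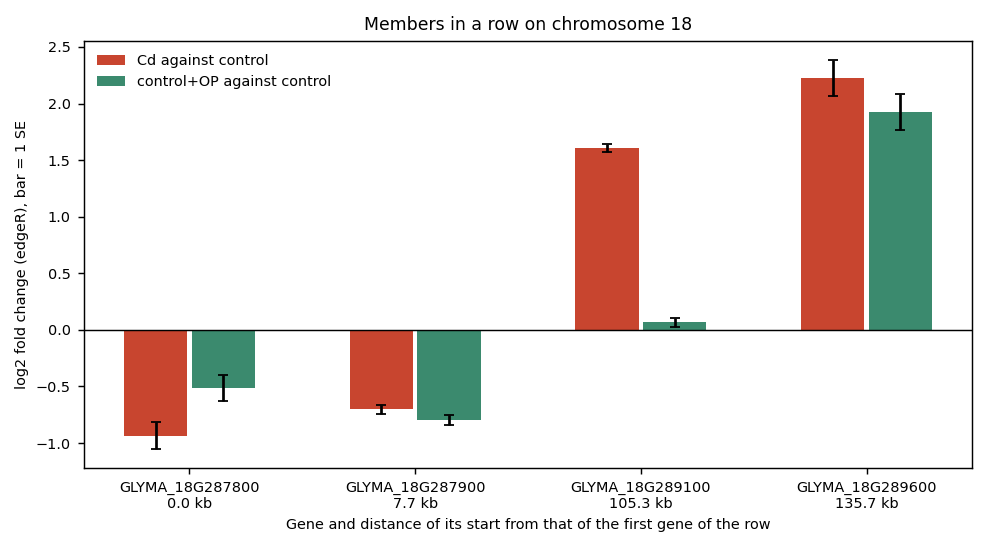
Log2 fold changes with SE (edgeR, n = 3 per group) of Cd against control and control+OP against control for 4 members in a row on chromosome 18, in the order in which they lie, with the distance of each start from the first. The adjacent first pair fell in both comparisons, and GLYMA_18G289100 rose with Cd and stayed at 0.07 with OP, which did not pass. GLYMA_18G289600 stood above 0 in both, but it was tested only because of the groups in which it was high, so its bars are values. Both comparisons share the control libraries.

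The 19 metal ion binding members, with the terms usual for zinc finger DnaJ proteins, which pass clients to Hsp70, moved 1 way with Cd: 17 rose, 0 fell and 2 did not pass. Over all tested genes 37.6% were called higher and 38.7% lower. The lowest of the 19 member changes was 0.11 on the log2 scale. All 5 that carry Hsp70 protein binding rose, by 0.50 to 1.18 on the log2 scale (adjusted p at most 1.73e-13, edgeR). The steepest, GLYMA_13G311600, had 100, 97.4 and 95.1 FPKM in Cd libraries, against 44.8, 43.1 and 41.9 FPKM in control libraries (log2 1.18 ± 0.0338). GLYMA_12G095700, the most abundant, had 198, 195 and 196 FPKM with Cd, against 106, 98.3 and 96.7 FPKM in control (log2 0.97 ± 0.032). GLYMA_12G190100, GLYMA_03G116600 and GLYMA_07G110200 rose by 0.74 ± 0.0345, 0.65 ± 0.0317 and 0.50 ± 0.0308. None of the 5 overlapped between the groups, against 77.2% of all tested genes without overlap.

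The 14 other metal ion binding members were far less abundant, with mean levels of 1.85 to 9.90 FPKM. Of these 12 rose, with 37.6% of all tested genes called higher. GLYMA_08G213400 stood out in size, with 6.39, 6.61 and 6.13 FPKM in Cd libraries, against 2.69, 2.37 and 2.31 FPKM in control libraries (log2 1.38 ± 0.134). GLYMA_08G152100, annotated as a membrane protein, had 8.52, 8.52 and 9.04 FPKM with Cd, against 5.8, 6.54 and 6.4 FPKM in control (log2 0.48 ± 0.085). Smaller changes that passed were 0.29 ± 0.097 for GLYMA_14G178800, 0.27 ± 0.0776 for GLYMA_15G271500 and 0.26 ± 0.114 for GLYMA_11G241000. The call of GLYMA_14G178800 ended without Cd library 1 or 3 or control library 1 (edgeR adjusted p up to 0.197), and that of GLYMA_15G271500 without Cd library 2 (adjusted p = 0.0957). That of GLYMA_11G241000 ended in 12 of 20 alternatives, DESeq2 and limma included (adjusted p up to 0.378).

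Other chaperone genes of the table, taken by their terms and without the members, went both ways. Of 185 tested genes with unfolded protein binding 61 were higher and 80 lower with Cd (median -0.06). Of 255 with protein folding 83 were higher and 112 lower (median -0.10), and of 21 with protein refolding 6 and 10. Of 32 tested genes with response to heat 12 were higher and 12 lower (median -0.13), although 19 members carry that term too. For Hsp90 protein binding the counts were 7 higher and 8 lower of 24, and for chaperone binding 24 and 35 of 81. For misfolded protein binding they were 8 and 1 of 10 (median 0.40), for Hsp70 protein binding 11 and 4 of 19 (median 0.32) and for response to ER stress 10 and 6 of 22 (median 0.09). Over all tested genes 37.6% were higher and 38.7% lower. The lists overlap, and no test was made between them and the members.

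Cd+OP against Cd compares roots with both treatments with roots that had the metal alone. Here 27 of 42 members fell, 7 rose and 8 did not pass, whereas 34.6% of all tested genes were called lower and 36.4% higher (71% in either direction). The median was -0.33 for the members and 0.00 for all tested genes. This comparison shares the Cd libraries with Cd against control, so the values are given side by side and their opposite signs are no separate support. Outside the members, 4 of 22 genes with response to ER stress were higher and 15 lower (median -0.20). For unfolded protein binding the counts were 79 higher and 59 lower of 185 (median 0.12).

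The ER lumen members fell most as a class, by 1.60 to 2.49 on the log2 scale (adjusted p at most 2.24e-20, edgeR). GLYMA_08G025700 had 83.6, 77.7 and 77.9 FPKM in Cd+OP libraries, against 288, 282 and 281 FPKM in Cd libraries (log2 -1.90 ± 0.0367). GLYMA_08G025900 had 13.3, 12.3 and 13 FPKM in Cd+OP, against 70.5, 69.2 and 66.8 FPKM in Cd (log2 -2.49 ± 0.0475). Set against control libraries, GLYMA_08G025700 and GLYMA_05G219600 in Cd+OP differed by -0.00 ± 0.0361 and -0.07 ± 0.0463 and did not pass (adjusted p = 0.933 and 0.172, edgeR). GLYMA_05G219400 and GLYMA_08G025900 were lower than in control by small amounts (log2 -0.13 ± 0.0314 and -0.20 ± 0.0482), and limma on log2 FPKM ended both calls. Without control library 2 the change of GLYMA_05G219400 was -0.21.

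Among the other ATPase members 10 fell and 5 rose, with 34.6% of all tested genes called lower and 36.4% higher. GLYMA_17G072400 had 5.2, 4.3 and 4.3 FPKM in Cd+OP libraries, against 18, 16.8 and 18.3 FPKM in Cd libraries (log2 -2.02 ± 0.0888). GLYMA_03G171100 had 360, 364 and 356 FPKM in Cd+OP, against 681, 691 and 688 FPKM in Cd (0.499-fold, with an SE of 0.0271 on the log2 scale), and was still above control by 0.71 ± 0.0271. The largest rise was that of GLYMA_13G224000, at 3.55, 3.44 and 3.48 FPKM in Cd+OP libraries, against 1.15, 0.908 and 0.984 FPKM in Cd libraries (log2 1.70 ± 0.162). This gene was tested only because of the groups in which it was high, so its change is given as a value. Its level with Cd alone was not separable from control (log2 0.18 ± 0.173, adjusted p = 0.363, edgeR).

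GLYMA_15G088000, an ATPase member annotated to the ER but not to its lumen, was also higher, at 10.5, 10.2 and 10.7 FPKM in Cd+OP, against 6.91, 7.72 and 6.92 FPKM in Cd (log2 0.47 ± 0.074). The mitochondrial pair that was low with Cd was higher with OP, GLYMA_08G065100 by 0.56 ± 0.0434 and GLYMA_07G184300 by 0.55 ± 0.0446. Both stayed under control in Cd+OP, by -0.33 ± 0.0423 and -0.37 ± 0.0434. GLYMA_15G059900 and GLYMA_13G254900 fell by 0.69 and 0.59 on the log2 scale.

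The metal ion binding members changed less: 11 of 19 fell, 0 rose and 8 did not pass, with a median of -0.22. Of all tested genes 34.6% were called lower and 36.4% higher. GLYMA_12G095700 had 148, 153 and 150 FPKM in Cd+OP libraries, against 198, 195 and 196 FPKM in Cd libraries (log2 -0.46 ± 0.0316). GLYMA_13G311600, GLYMA_07G110200 and GLYMA_12G190100 fell by 0.29, 0.20 and 0.19 on the log2 scale. With limma on log2(FPKM + 1) the changes of GLYMA_07G110200 and GLYMA_12G190100 were -0.13 and -0.12. GLYMA_03G116600 had 134, 131 and 131 FPKM in Cd+OP, against 127, 126 and 126 FPKM in Cd, and did not pass (log2 -0.01 ± 0.0314, adjusted p = 0.74, edgeR). Its FPKM were slightly higher in every Cd+OP library, while the change fitted on counts was slightly negative.

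Control+OP against control compares roots with the bacterium alone with untreated roots. It shares the control libraries with Cd against control. Of the 42 members 23 rose, 5 fell and 14 did not pass, with 34.6% of all tested genes called higher and 27.2% lower (61.8% in either direction). The median was 0.22, against 0.06 for all tested genes. Without control library 3 these medians were 0.14 and 0.005. The abundant ATPase members rose: GLYMA_03G171100 had 456, 439 and 449 FPKM in control+OP libraries, against 212, 210 and 206 FPKM in control libraries (log2 1.10 ± 0.0272). GLYMA_12G064000 had 204, 202 and 203 FPKM with OP, against 95.3, 91.4 and 89.6 FPKM in control (log2 1.15 ± 0.0301). GLYMA_19G172200 and GLYMA_11G140500 rose by 0.91 ± 0.0308 and 0.93 ± 0.0334. Genes outside the members rose too: 93 of 185 with unfolded protein binding were higher and 23 lower (median 0.20). For protein folding the counts were 129 and 30 of 255 (median 0.20). Response to heat went the other way, with 8 higher and 13 lower of 32 (median -0.33). For misfolded protein binding 1 was higher and 3 were lower of 10 (median -0.05).

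The low members GLYMA_18G289600 and GLYMA_13G224000 were tested only because of the groups in which they were high, so their changes are given as values. Both are among the 23 members counted as risen. GLYMA_18G289600 had 2.88, 2.42 and 2.16 FPKM in control+OP libraries, against 0.753, 0.573 and 0.647 FPKM in control libraries (log2 1.92 ± 0.159), and GLYMA_13G224000 changed by 1.54 ± 0.165. With limma on log2(FPKM + 1) these were 1.07 and 0.93. The neighbour of GLYMA_13G224000 on chromosome 13, GLYMA_13G224100, with no gene listed between them, fell by 0.33 on the log2 scale (adjusted p = 0.0235, edgeR), a call that ended without control+OP library 1 or 2 or control library 3 (adjusted p up to 0.103). GLYMA_18G287900 had 27.5, 28.9 and 27.8 FPKM with OP, against 52.4, 47 and 47.8 FPKM in control (log2 -0.80 ± 0.0416), and GLYMA_18G287800 changed by -0.51 ± 0.115. The level of GLYMA_17G072400, the tested member with the largest log2 change with Cd, was 3.30 ± 0.115 FPKM in control+OP and 3.30 ± 0.361 FPKM in control (SD, n = 3 each).

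The ER lumen members rose with OP alone as well, by 0.12 to 0.82. GLYMA_05G219600 had 28.8, 27.1 and 30.4 FPKM in control+OP libraries, against 16.8, 15.8 and 16.6 FPKM in control libraries (log2 0.82 ± 0.0455). GLYMA_05G219400 and GLYMA_08G025700 rose by 0.54 ± 0.0312 and 0.47 ± 0.036. GLYMA_08G025900 overlapped between the groups, and its call (log2 0.12 ± 0.0478, adjusted p = 0.0332, edgeR) ended in 16 of 21 alternatives (adjusted p up to 0.638). Of the metal ion binding members 7 rose (36.8%, against 34.6% of all tested genes), 2 fell (10.5%, against 27.2%) and 10 did not pass. Among them GLYMA_12G190100 rose by 0.63 ± 0.0345, GLYMA_13G311600 by 0.50 ± 0.0339 and GLYMA_12G095700 by 0.27 ± 0.0319. GLYMA_07G110200 fell by 0.12 (-0.19 without control library 2 and -0.18 without control library 3) and GLYMA_08G134400 by 0.30 on the log2 scale, the second call ending with limma and without control+OP library 3 (adjusted p up to 0.103).

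Cd+OP against control+OP gives the effect of Cd in roots that have the bacterium. It shares no library with Cd against control. Of the 42 members 15 were higher, 17 lower and 10 not called, with 33.6% of all tested genes called higher and 33.1% lower (66.7% in either direction). The median was 0.10, against 0.01 for all tested genes. For the 25 members of at least 5 FPKM it was -0.08, against 0.01 for all genes of at least 5 FPKM. With limma on log2(FPKM + 0.1) it was 0.17, against 0.079 for all tested genes. Of the 33 members that rose with Cd without OP, 13 were higher with Cd in the presence of OP, 13 were lower and 7 did not pass. Of all 11402 tested genes that rose with Cd without OP, 49.2% were higher, 18.9% lower and 31.8% not called in the presence of OP. Outside the members, 34 of 185 genes with unfolded protein binding were higher in Cd+OP than in control+OP and 93 lower (median -0.24). For response to heat the counts were 12 and 13 of 32 (median 0.07).

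All 4 ER lumen members were lower in Cd+OP than in control+OP, by 0.33 to 0.89 on the log2 scale. The control+OP libraries are shared with control+OP against control, where these 4 were called higher, so the opposite signs are no separate support. GLYMA_05G219600 had 15.5, 16.7 and 16.8 FPKM in Cd+OP libraries, against 28.8, 27.1 and 30.4 FPKM in control+OP libraries (log2 -0.89 ± 0.0456), and GLYMA_05G219400 changed by -0.67 ± 0.0313. GLYMA_07G184300, which was lower with Cd without OP too, changed by -0.66 ± 0.0433. GLYMA_18G289600 changed by -0.67 ± 0.147 (-0.40 with limma on log2(FPKM + 1)), given as a value because it was tested only through its high groups. Other genes were higher with Cd under both conditions. GLYMA_08G213400 had 5.76, 6.3 and 6.04 FPKM in Cd+OP, against 2.66, 1.97 and 1.85 FPKM in control+OP (log2 1.41 ± 0.136). GLYMA_18G289100 had 29.6, 29.6 and 28.9 FPKM in Cd+OP, against 16, 15.5 and 15.8 FPKM in control+OP (log2 0.82 ± 0.0386). GLYMA_03G116600 and GLYMA_08G152100 were higher by 0.61 ± 0.0316 and 0.59 ± 0.0849.

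**Figure D5:**
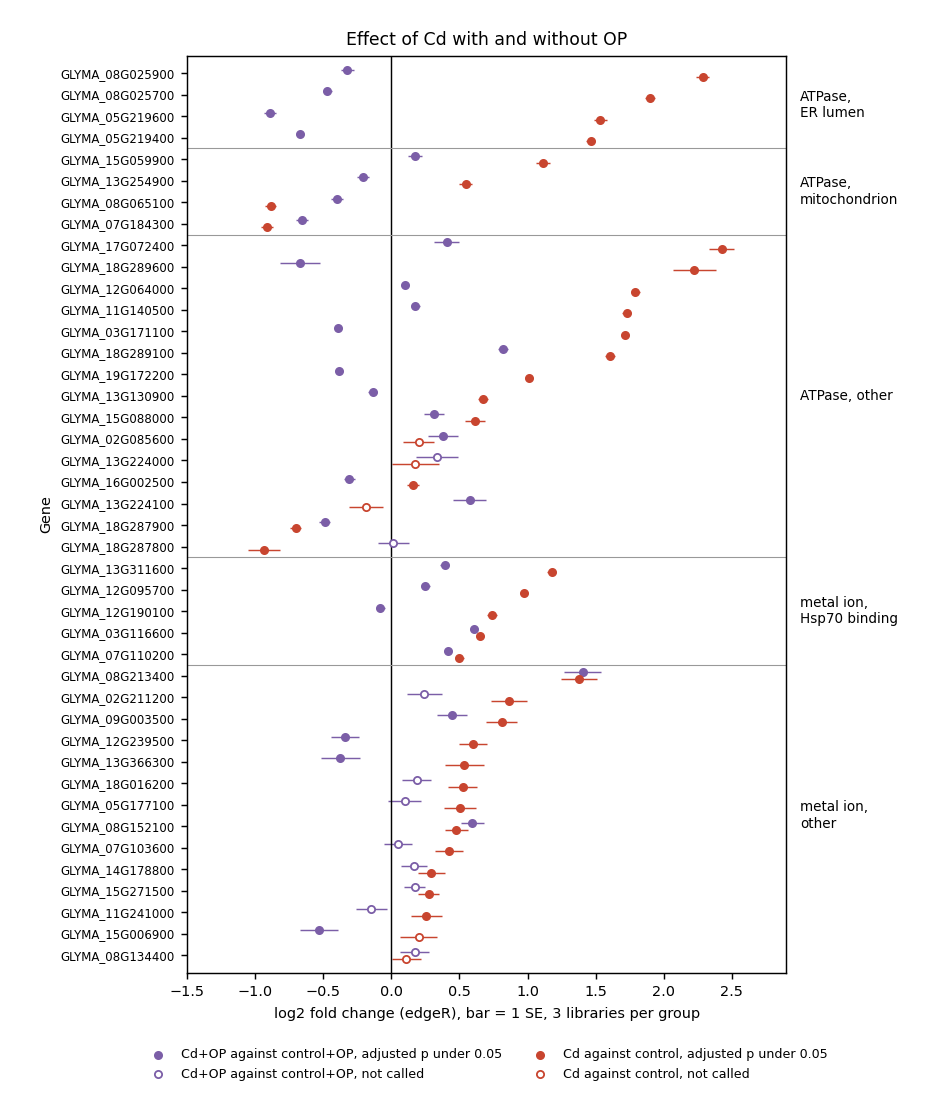
Log2 fold changes (edgeR, bar = 1 SE, n = 3 per group) of Cd+OP against control+OP and of Cd against control for each tested member; filled points had an adjusted p under 0.05. The ER lumen genes lie on opposite sides of 0 in the 2 comparisons, whereas the points of GLYMA_03G116600 and GLYMA_08G213400 nearly coincide.

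The interaction, the effect of Cd with OP minus that without OP, tested whether the 2 effects differ. It was negative and called in 27 of 42 members and positive in 5, and 10 did not pass. Of all tested genes 30.4% were called negative and 33.4% positive (63.9% in either direction), and the medians were -0.54 for the members and 0.01 for all tested genes. For the ER lumen members it was -2.61 to -2.13 (adjusted p at most 1.24e-20, edgeR). GLYMA_03G171100 was at -2.11 ± 0.0384 and GLYMA_17G072400 at -2.02 ± 0.128. GLYMA_18G289600 was at -2.90 ± 0.216 (-1.69 with limma on log2(FPKM + 1)), given as a value because it was tested only through its high groups. Of the metal ion binding members 11 of 19 were called, all negative, with a median of -0.38. For GLYMA_03G116600 the difference was -0.04 ± 0.0446 and for GLYMA_08G213400 0.03 ± 0.189, and neither passed (adjusted p = 0.391 and 0.905, edgeR). The positive ones were GLYMA_18G287800 (0.95 ± 0.165), GLYMA_13G224100 (0.76 ± 0.174), GLYMA_08G065100 (0.49 ± 0.0604), GLYMA_07G184300 (0.26 ± 0.0618) and GLYMA_18G287900 (0.21 ± 0.0593).

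The same contrast seen from the bacterium's side used control+OP against control and Cd+OP against Cd, which share no library. Of the 23 members that rose with OP alone, 18 were lower with OP under Cd, 3 were higher and 2 did not pass. Of all 10496 tested genes that rose with OP alone, 26.7% were lower, 49.6% higher and 23.7% not called under Cd. No test was made between the members and all genes. GLYMA_15G088000 was among the members higher with OP in both settings. So was GLYMA_13G224000, but it was tested only because it was high in the OP groups, so its direction is given as a value. GLYMA_15G088000 had 7.99, 8.07 and 7.97 FPKM in control+OP libraries, against 4.96, 4.48 and 4.67 FPKM in control libraries (log2 0.77 ± 0.0761). GLYMA_18G287900 was lower with OP in both, by 0.80 without Cd and 0.59 with Cd on the log2 scale.

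Cd+OP against control sets the combined treatment against untreated roots. Of the 42 members 24 were higher, 8 lower and 10 not called, with 30.2% of all tested genes called higher and 29.3% lower (59.5% in either direction). All 5 members with Hsp70 protein binding stayed above control, by 0.30 to 0.89 on the log2 scale, GLYMA_13G311600 having 83.7, 84.4 and 84 FPKM in Cd+OP libraries, against 44.8, 43.1 and 41.9 FPKM in control libraries. Of the other ATPase members 11 of 15 were higher, among them GLYMA_12G064000 (1.25 ± 0.0301) and GLYMA_11G140500 (1.11 ± 0.0335). GLYMA_18G287900 was lowest in Cd+OP of all groups, at 20.9, 21.5 and 20.7 FPKM, against 52.4, 47 and 47.8 FPKM in control (log2 -1.29 ± 0.0423).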

How the data were processed

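The authors deposited FPKM values and whole-number expected counts per gene and library in 1 table; no source used here names their aligner, counting tool, build or annotation. In the deposited counts the value 4 occurred 10000 times, against 5019 times for 3 and 3231 times for 5, and they were used without change. Members were taken by the term heat shock protein binding, and classes by further terms. The members, lists and tests were chosen with earlier results of these data known. Genes whose mean reached 1 FPKM were tested with edgeR 4.0.16 (R 4.3.3), with TMM scaling, 1 mean per group over all 12 libraries, two-sided tests and Benjamini-Hochberg adjustment over 30340 genes. SE is the change divided by the square root of F. Named are, among called members, the 8 highest and 8 lowest changes for Cd against control and the 4 highest and 4 lowest for each other comparison except Cd+OP against control, the 6 of highest level (28 genes), and 5 more that complete classes of 5 or fewer. GLYMA_01G238600, GLYMA_10G293900, GLYMA_18G290600 and GLYMA_02G205600 were named after their values were seen.

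Across genes, the correlation within groups was 0.992 to 0.994 on log2(FPKM + 1), and the biological coefficient of variation was 0.0796. The deviations of same-numbered libraries of different groups correlated at most at 0.0854, and the main fit used no pairing. Depth limits precision through counting error alone, and with 3 libraries per group the fit pools the spread over groups. Alternatives used DESeq2 1.42.0 and limma 3.58.1.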

Additional observations from a re-analysis of the deposited data

Results flagged for a closer look

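The effect of Cd with OP differed from that without OP in the test of the difference itself, the edgeR interaction, for 32 of 42 members, of which the 4 most negative and 4 most positive named by the rule follow. In the ER lumen class the difference was -2.61 for GLYMA_08G025900 (log2 change with Cd -0.33 with OP and 2.29 without), -2.43 for GLYMA_05G219600 (-0.89 and 1.53) and -2.37 for GLYMA_08G025700 (-0.47 and 1.90). Their adjusted p-values were at most 1.24e-20. GLYMA_18G289600, an ATPase member of low level, differed by -2.90 (-0.67 with OP and 2.22 without). It was tested only because of the groups in which it was high (control mean 0.658 FPKM), and with limma on log2(FPKM + 1) the difference was -1.69 and the change without OP 1.295.

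The mitochondrial members GLYMA_08G065100 and GLYMA_07G184300 were lower with Cd under both conditions, less so with OP, and the differences were 0.49 and 0.26 (edgeR adjusted p = 1.25e-07 and 7.74e-04). GLYMA_18G287800 differed by 0.95 (0.01 with OP and -0.93 without, adjusted p = 2.01e-05), and GLYMA_13G224100 by 0.76 (0.57 with OP and -0.19 without, adjusted p = 4.77e-04). Of all tested genes 63.9% were called for this interaction.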

How the results depend on the processing

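Of 162 called results of named genes, 143 were called under every alternative run, 19 lost the call under at least 1, and 0 of the called results changed sign. Among members of at least 5 FPKM (25 tested) the median was 0.918 for Cd against control, -0.473 for Cd+OP against Cd, -0.076 for Cd+OP against control+OP and -0.726 for the interaction. Counts there were 3 higher for Cd+OP against Cd, 2 lower for control+OP against control, 15 higher for Cd+OP against control and 3 positive for the interaction, with fewer members tested. Of all 16336 genes of at least 5 FPKM the same counts were 6368, 5826, 4833 and 6586. With no filter (52 tested) the medians were 0.568 for Cd against control, 0.153 for control+OP against control, 0.14 for Cd+OP against control+OP, 0.281 for Cd+OP against control and -0.385 for the interaction, and 8 members were lower for control+OP against control. Of all 48315 genes tested there 10096 were lower for control+OP against control. With limma on log2(FPKM + 1) the medians were 0.521 for Cd against control, -0.243 for Cd+OP against Cd, 0.155 for control+OP against control, 0.142 for Cd+OP against control+OP and -0.388 for the interaction. With limma on log2(FPKM + 0.1) they were -0.253 for Cd+OP against Cd, 0.172 for Cd+OP against control+OP, 0.431 for Cd+OP against control and -0.461 for the interaction. Both limma fits called 4 members lower for Cd+OP against control. Of all 30340 tested genes they called 7377 lower on log2(FPKM + 1) and 7144 on log2(FPKM + 0.1). With only the groups compared the median for control+OP against control was 0.166; this setting was not run for the interaction. Medians over all tested genes moved in some settings and not in others. For Cd+OP against control+OP they were 0.009 in the main fit and 0.079 with limma on log2(FPKM + 0.1). For Cd+OP against Cd they were 0.001 in the main fit and 0.059 with limma on log2(FPKM + 1). For Cd against control limma on log2(FPKM + 1) gave -0.0, against 0.003 in the main fit. The causes were not tested.

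Leaving out 1 library gave medians of 0.548 to 0.605 for Cd against control, -0.351 to -0.316 for Cd+OP against Cd, 0.136 to 0.259 for control+OP against control, 0.073 to 0.117 for Cd+OP against control+OP, 0.291 to 0.37 for Cd+OP against control and -0.571 to -0.459 for the interaction. For all tested genes the median for Cd against control was 0.003 in the main fit. It was -0.055 to -0.048 without a Cd or control library. Uncalled changes near 0 changed sign. GLYMA_08G025700 in Cd+OP against control was 0.064 with both limma fits and -0.083 to 0.02 without a library. GLYMA_03G116600 in Cd+OP against Cd was 0.059 and 0.06 with limma, 0.005 at 5 FPKM and -0.029 to 0.0 without a library. Its interaction was 0.032 with both limma fits, 0.015 at 5 FPKM, 0.008 with no filter and -0.072 to 0.022 without a library. GLYMA_18G287800 in Cd+OP against control+OP was -0.046 to 0.126 without a library, and the interaction of GLYMA_08G213400 -0.067 to 0.195.

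Same-numbered libraries of different groups deviated together weakly at most: 0 of 18 pairs correlated above 0.1 (-0.014 to 0.0854). Pairs of other numbers ran from -0.1075 to 0.0565, and 7 of 12 libraries correlated best with their own number. Whether the numbers pair the libraries was not tested. With the replicate number as a block 32 members were higher and 4 lower for Cd against control, and 5 were positive and 26 negative for the interaction. Of all 30340 tested genes 11346 were higher and 11700 lower for Cd against control with this block. For the interaction 10125 were positive and 9184 negative. Depth limits the members of low level most.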
